A study of Mus musculus with 1814 samples.

Results

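The genes described here are 46 that load, start and run the DNA replication machinery, given as a list of names. All 46 were found in both deposited gene tables, among 25125 genes in the table of experiments 1, 3 and 4 and 15177 genes in the table of experiment 5, and none was at 0 in any of these experiments. They were read in single mouse germinal center B cells, index-sorted into plates and sequenced by SmartSeq2, a full-length method with no molecular identifiers. In a germinal center B cells divide in the dark zone and are selected, with the help of T cells, in the light zone.

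In experiments 3 and 4 every cell used was Dec_Positive and labelled as from the light or the dark zone at 12, 30, 46 or 60 h. The authors' table of cells marked 97 cells of these experiments for both zones, and the zone of the label was used. Experiment 1 held Dec_Positive and 80 Dec_Negative light zone cells at 12 h, and 42 Dec_Positive dark zone cells labelled 30 h. For those 42 cells the authors' table of cells lists 36 h in its group field, and the label was used. In experiment 5 the cells were Dec_Positive, WT, KO or TA, and from either zone, with no time given. Its plates were named after Ccnd3, the gene of cyclin D3, but the labels did not say what was altered in KO or TA, what Dec stands for or how many animals gave the cells. The median number of reads assigned to genes per cell was 417105, 210350, 292109 and 155485 in experiments 1, 3, 4 and 5. Over 25 groups of cells, 8 germinal center B cell markers summed to between 4973 and 8887 CPM (reads of a gene scaled to a common total of reads), T cell markers to between 0.83 and 375 CPM, plasma cell markers to between 623 and 5585 CPM, and myeloid markers to between 0 and 37.2 CPM. The table of experiment 5 held 9 of 10 T cell, 5 of 6 plasma cell and 3 of 10 myeloid markers, so its sums cover fewer genes. In many groups of experiments 1, 3 and 4 the plasma cell markers Sdc1, Prdm1 and Tnfrsf17 were at 0.

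Ccnd3 itself was read first, as a check of the genotype labels. Its pooled level was 477 CPM in WT, 89.3 CPM in KO and 287.3 CPM in TA dark zone cells. In the light zone it was 350.0 CPM in WT, 78.6 CPM in KO and 118.9 CPM in TA. By plate, KO cells of the dark zone lay between 55.99 and 122.5 CPM and WT cells between 292.5 and 651 CPM, with no overlap. TA plates of the dark zone, from 160.4 to 399.96 CPM, overlapped with WT plates. In the light zone TA plates ran from 50.8 to 225.04 CPM. They overlapped with KO plates, from 30.4 to 151.7 CPM, and with WT plates, from 223.9 to 418.1 CPM. Ccnd3 levels thus set KO apart from WT, but not TA.

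Before S phase, the origin recognition complex and CDC6 load the ring-shaped MCM helicase onto DNA, a step called licensing. At the start of S phase, CDC45 and the GINS complex join the ring and turn it into the active helicase, and the polymerases, the sliding clamp PCNA and its loaders copy the DNA behind it. Many of these genes are textbook targets of the E2F factors, which are held back by RB until cyclin D and cyclin E kinases act on it, and dark zone B cells are known for short, repeated cell cycles.

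The 46 genes fell into 7 roles. Origin recognition and licensing held 9 genes, helicase activation held 8, the clamp and clamp loaders 7, polymerases and primase 9, single strand binding and Okazaki fragment maturation 5, and fork protection 4. The last 4 were Dtl, the substrate receptor of a ubiquitin ligase that acts on PCNA-bound proteins, Usp1, which removes ubiquitin from PCNA, Atad2, a chromatin ATPase of S phase cells, and Slbp, which binds the ends of histone mRNAs.

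Because these genes are known for E2F control, their start regions were searched for 2 E2F motifs, TTTCCCGC and TTTGGCGC, on both strands. The windows were 300 bases long, from 250 bases before to 50 after the start, from RefSeq on GRCm38.p6. A window was found for 35 of the 46 genes, and none for Mcm4, Gins1, Gins2, Gins4, Rfc2, Dscc1, Prim2, Pole, Tipin, Usp1 and Atad2. A match to either motif was in the windows of 12 of these 35 genes (34.3%), against 486 of all 27025 genes (1.80%). The 12 were Cdc6, Dtl, Gins3, Mcm3, Mcm5, Mcm6, Mcm7, Pola1, Pold1, Pold3, Pole2 and Rfc3. The 5 stretches below are the matches that lie upstream of the RefSeq start and outside every exon of the GENCODE annotation. They show the letters in 2 MCM subunits, in the loader Cdc6 and in the polymerase Pola1. In GENCODE the Cdc6 gene starts at position 98907801, so its stretch lies inside that gene, between exons. Each runs 5′ to 3′ along the gene's strand, with the motif in capitals. GCGGGAAA and GCGCCAAA are the same motifs read from the opposite strand.
Cdc6 at chr11:98907987-98908046, plus strand: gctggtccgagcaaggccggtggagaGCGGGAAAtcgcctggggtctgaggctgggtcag
Mcm5 at chr8:75109334-75109393, plus strand: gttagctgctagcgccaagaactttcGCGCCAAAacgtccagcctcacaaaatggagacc
Mcm6 at chr1:128359782-128359841, minus strand: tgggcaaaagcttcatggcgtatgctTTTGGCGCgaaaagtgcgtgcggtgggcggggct
Mcm6 at chr1:128359719-128359778, minus strand: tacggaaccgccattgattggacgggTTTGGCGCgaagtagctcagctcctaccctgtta
Pola1 at chrX:93632260-93632319, minus strand: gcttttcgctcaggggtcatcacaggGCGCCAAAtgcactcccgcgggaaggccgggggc
A match describes these letters and was not tested as a binding site. Another sequence, CCAAT, was searched in the same windows. It was in those of 23 of the 35 genes (65.7%), against 41.1% of all 27025 genes. The genes compared were not matched for base composition.

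Levels of different genes were compared per kilobase of merged GENCODE exon, as the mean ± SD of experiments 1, 3, 4 and 5. Tipin, a partner of Timeless at the fork, was highest with 176.2 ± 36.2 CPM per kb, and Pcna followed with 169.7 ± 22.3 CPM per kb. Of the MCM ring, Mcm6 stood at 166.9 ± 29.3, Mcm3 at 149.3 ± 43.4, Mcm5 at 132.6 ± 40.8, Mcm7 at 107.1 ± 24.9, Mcm4 at 102.7 ± 21.3 and Mcm2 at 63.03 ± 17.5 CPM per kb. The levels of Tipin, Pcna and Mcm6 differed by less than their SD. Rfc4, a clamp loader subunit, reached 140.7 ± 33.4 and Fen1, the flap nuclease of Okazaki fragments, 106.1 ± 38.4 CPM per kb. At the other end were Ticrr, which brings CDC45 to origins, with 3.92 ± 1.92 CPM per kb, Orc1, an origin recognition subunit, with 5.02 ± 1.90, and Pole, the leading strand polymerase, with 5.04 ± 1.97. These 3 lowest levels also differed by less than their SD.

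The authors gave each cell a phase, G1, S or G2M. Such a call is made from the RNA of the same cells, and 22 of the 46 genes are in the S phase gene lists that Seurat offers. Which list was used is not given in the sources used here, so levels by phase are a description with no test. In Dec_Positive cells the summed level of the 46 genes was lowest in G1, highest in S and between them in G2M, in each of 5 sums of cells by experiment and zone. In dark zone cells of experiment 3 it was 4161 CPM in G1, 13988 CPM in S and 7699 CPM in G2M, and in experiment 4 it was 4860.1, 15771 and 8652 CPM. Light zone cells of experiment 3 gave 4349, 13947 and 8415 CPM, those of experiment 4 gave 3627, 13567 and 7980.0 CPM, and those of experiment 1 gave 4767, 12549.6 and 6501 CPM. The dark zone cells of experiment 1, with 4 cells in G1, gave 14275 CPM in S and 12288 CPM in G2M.

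**Figure D1:**
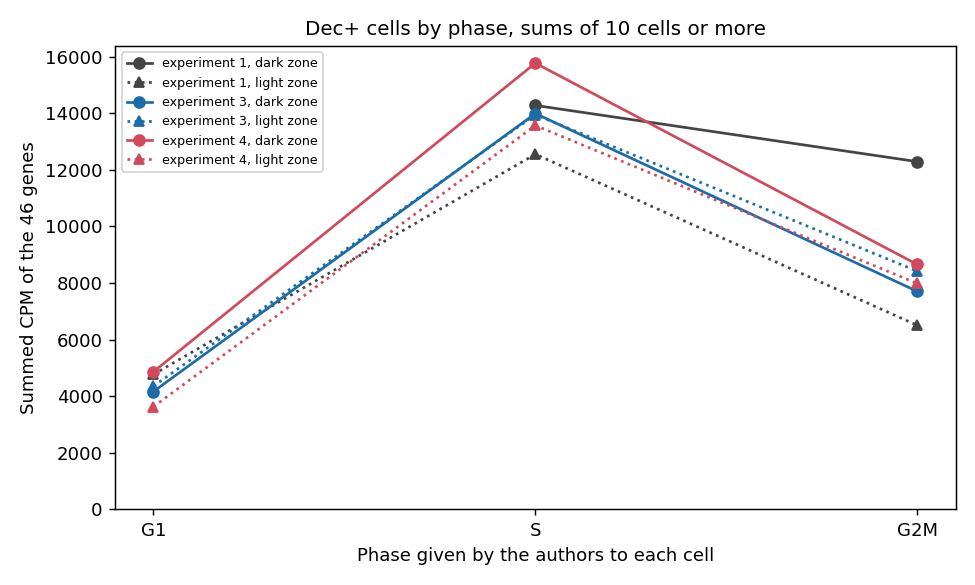
Summed CPM of the 46 genes (y axis) by the phase the authors gave each cell (x axis), with one line per experiment and zone and one point per sum of 10 Dec+ cells or more. Every line with a G1 point starts between 3627 and 4860.1 CPM and peaks in S between 12549.6 and 15771 CPM.

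The median log2 ratio of S over G1 was 1.93 over the 46 genes, ranging from 1.60 to 2.20 between the 5 sums, while the median over 6990 genes at 20 CPM or more was 0.01. The ratio was above 0 on average for all 46 genes and in each of the 5 sums for 43 of them. The 24 genes in neither version of the Seurat list had a median of 1.79 and the 22 listed genes a median of 2.22. The largest ratios were those of Cdc6 (5.24 ± 1.68, SD over 5 sums), Mcm10, which helps to activate the helicase (4.89 ± 1.54), Cdc45 (4.74 ± 2.11) and Clspn, which carries the checkpoint signal from the fork (4.58 ± 1.26). In dark zone cells of experiment 3 Cdc6 was at 8.39 CPM in G1, 232.99 CPM in S and 39.6 CPM in G2M, and in experiment 4 at 26.2, 202.1 and 75.7 CPM. At the low end stood Rfc1, the large clamp loader subunit (0.29 ± 0.22), Rfc2, a small one (0.60 ± 0.45), and the single strand binding subunits Rpa3 (0.94 ± 0.51) and Rpa1 (1.02 ± 0.25). Rfc1 in dark zone cells of experiment 3 was at 256.8 CPM in G1, 262.7 CPM in S and 223.2 CPM in G2M, nearly level. By these phase calls, the list held genes far lower in G1 than in S and genes near level across the phases. Of the genes with the largest ratios, Cdc6, Cdc45 and Clspn are in the Seurat lists and Mcm10 is not. How much of their low level in G1 comes from the call itself was not tested.

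From S to G2M the median log2 ratio was -0.77, with -0.87 to -0.70 between the 5 sums, and 1 of the 46 genes was above 0 on average. The median over 6758 genes was -0.07. The steepest were Cdc6 (-2.38 ± 0.74), Dtl (-1.84 ± 0.25), Mcm4 (-1.66 ± 0.28) and Rpa2, the middle single strand binding subunit (-1.55 ± 0.35). The mildest with the same sign in all 5 sums were Rpa1 (-0.39 ± 0.21), Rfc2 (-0.57 ± 0.29), Mcm7 (-0.57 ± 0.22) and Rfc4 (-0.66 ± 0.43).

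A reading of the cell cycle that did not come from RNA was the FUCCI intensity that the sorter recorded for each cell in experiments 3 and 4. FUCCI is a fluorescent reporter whose protein is made or destroyed with the cycle, and the labels did not say which of its colours was recorded. Cells of each experiment, time and zone were split at the median intensity, which gave 13 pairs of sums with high and low FUCCI. The replication genes were higher in FUCCI high cells: the log2 ratio was above 0 for 45 of the 46, with a median of 0.62 against 0.12 over all 10784 genes tested. By edgeR's quasi-likelihood test with Benjamini-Hochberg adjustment 5 genes rose and 0 fell, where 0.566% of all genes tested were called. Without adjustment 27 of the 46 had a p under 0.05, as did 8.79% of all genes tested.

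Those that rose join Okazaki fragments, unwind DNA or load the clamp. Lig1, the ligase that seals Okazaki fragments, ranged from 98.5 to 360 CPM in high sums (median 280.2) and from 59.6 to 200.7 CPM in low sums (median 110.05). It was higher in 13 of 13 pairs, although the 2 ranges overlapped, with a log2 ratio of 1.17 ± 0.17 (SE) and an edgeR adjusted p of 0.00135. Fen1 had a median of 316.4 CPM in high sums, from 105.7 to 510 CPM, and of 183.3 CPM in low sums, from 66.9 to 261.03 CPM. It was higher in 12 of 13 pairs, with a log2 ratio of 0.89 ± 0.14 and an adjusted p of 0.00289 by edgeR. Cdc45, a part of the active helicase, had a median of 188.3 CPM against 79.4 CPM, with ranges of 56.7 to 369 CPM and 48.95 to 130.6 CPM. Its log2 ratio was 1.12 ± 0.24 (edgeR adjusted p = 0.0289), and it was higher in 11 of 13 pairs. Mcm7 had a median of 642 CPM in high sums, from 238.4 to 1169.6 CPM, and of 381 CPM in low sums, from 171.97 to 556 CPM. Its log2 ratio was 0.80 ± 0.16 (edgeR adjusted p = 0.0254), with 12 of 13 pairs higher. Rfc2 had the smallest difference of the 5, with medians of 548 and 377 CPM, ranges of 356 to 840.2 CPM and 205.2 to 796 CPM, and a log2 ratio of 0.49 ± 0.10 (edgeR adjusted p = 0.0218), and it was higher in 13 of 13 pairs. For each of these 5 genes high and low sums overlapped across experiments, times and zones, and the difference lay within pairs.

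All 9 licensing genes, 7 of 8 helicase activation genes, all 7 clamp genes, all 9 polymerase genes, all 5 single strand and Okazaki genes, all 4 fork protection genes and all 4 of the last role had a ratio above 0. The medians by role ran from 0.42 for licensing and 0.44 for single strand binding and Okazaki maturation to 0.75 for polymerases and primase and 0.79 for helicase activation. Gins3, a GINS subunit, was the 1 gene below 0, and it was higher in the high sum in 6 of 13 pairs. Among other replication genes 2 of 28 tested rose, Top2a, which untangles DNA (1.96 ± 0.26, edgeR adjusted p = 0.000491), and Pclaf, a PCNA-binding protein (1.42 ± 0.27, adjusted p = 0.0172). Of 8 genes of nucleotide supply, Rrm1, a subunit of ribonucleotide reductase (1.38 ± 0.17, edgeR adjusted p = 0.000186), and Tk1, thymidine kinase (1.34 ± 0.28, adjusted p = 0.0289), rose. None of 13 E2F and RB family genes passed by edgeR, with 12 of 13 above 0 and a median of 1.11.

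The ratios of the 5 genes stayed above 0 without either experiment. Without experiment 3 edgeR called 0 of all 10404 genes tested, and so 0 of the 46, of which 11 had a p under 0.05 before adjustment (4.14% of all genes). The log2 ratios were then 0.89 for Lig1, 0.77 for Fen1, 0.84 for Cdc45, 0.53 for Rfc2 and 0.44 for Mcm7, and the median of the 46 was 0.41. Without experiment 4, Lig1, Fen1 and Mcm7 passed and the median was 0.76. DESeq2 called 14 of the 46, all of them higher, where it called 4.78% of all genes tested. The median ratio was above 0 in 12 of the 13 pairs, and in the other, light zone cells of experiment 4 at 12 h, it was -0.09.

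**Figure D2:**
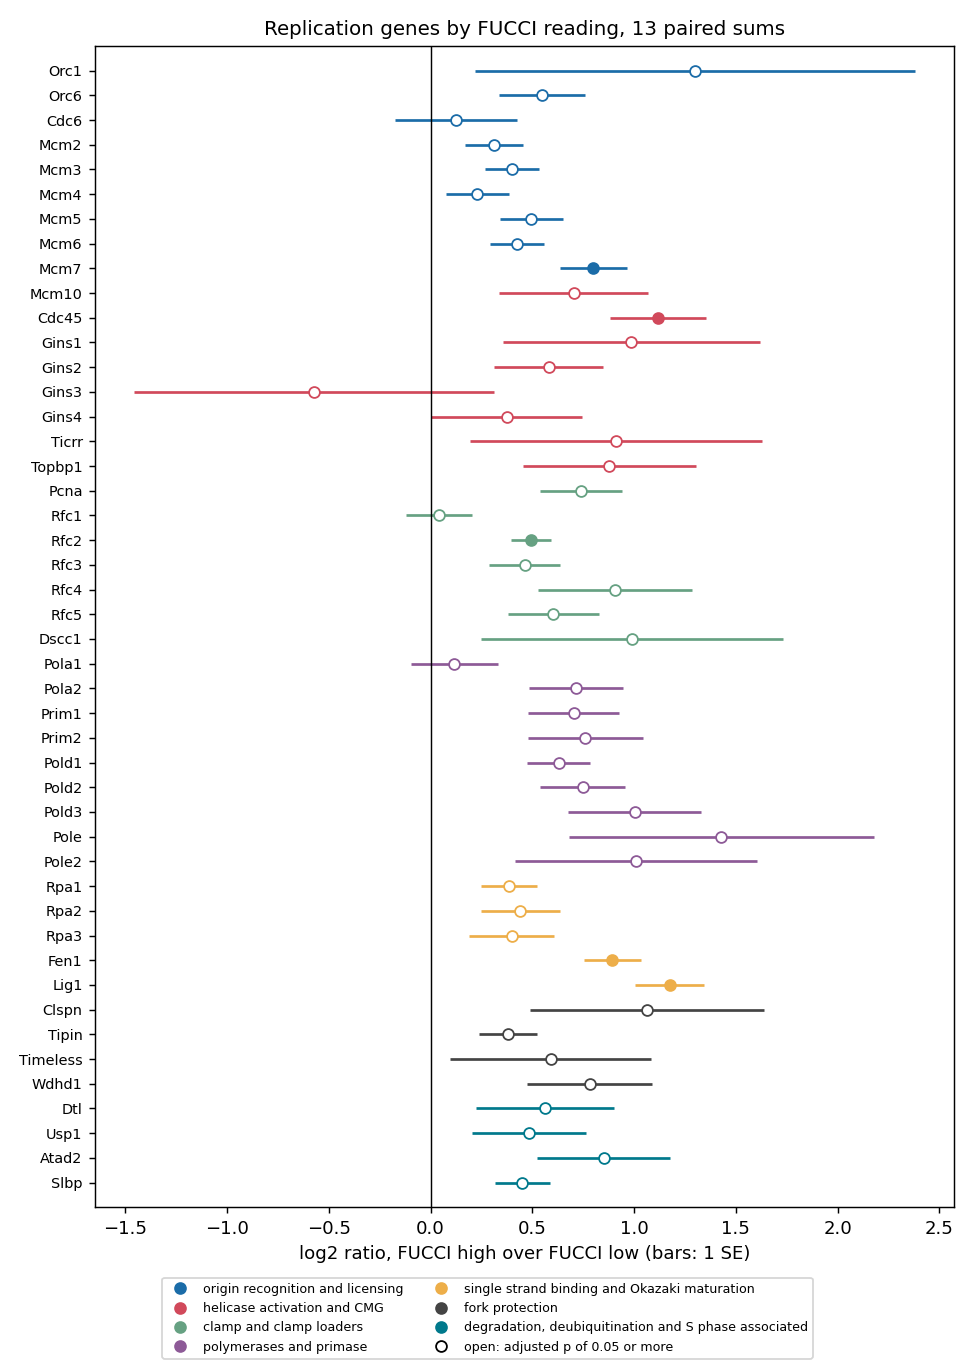
Log2 ratio of FUCCI high over FUCCI low cells (x axis, bars 1 SE) for each of the 46 genes (y axis), coloured by role and filled where the edgeR adjusted p was under 0.05. All but Gins3 lie right of 0, and Lig1, Cdc45, Fen1, Mcm7 and Rfc2 are filled.

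In a finer split, chosen after seeing the data, the cells of each experiment were cut into 3 equal bins of FUCCI intensity. Unlike the pairs, these bins pooled all times and both zones, so they can also differ in time and zone. In experiment 3 the median intensity was 94 in dark zone cells at 12 h and 2202 in light zone cells at 46 h. The summed level of the 46 genes was 6123, 8494 and 11403 CPM in the low, middle and high bin of experiment 3, and 8313, 9653 and 11663 CPM in experiment 4. The high bin was the highest in both experiments for 31 genes, the middle bin for 5 genes and the low bin for 0. Lig1 went from 80.1 over 191.7 to 302.8 CPM in experiment 3, and from 138.7 over 179.9 to 288.3 CPM in experiment 4. Cdc6 and Mcm4 were highest in the middle bin instead. Cdc6 stood at 61.5, 108.2 and 96.0 CPM in experiment 3 and at 90.7, 119.9 and 96.5 CPM in experiment 4. Mcm4 gave 233.1, 347 and 296.4 CPM, and 452, 563 and 422 CPM. In the high bin 0.862% of cells in experiment 3 and 3.70% in experiment 4 were called G1, against 68.7% and 53.3% in the low bin.

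Summed levels of these genes differed between the genotypes of experiment 5. In the dark zone the 46 genes summed to 7523 ± 933 CPM in WT, 2944 ± 961 CPM in KO and 11523 ± 1015 CPM in TA (SD over 4 plates). The 4 KO plates lay between 1854 and 4092 CPM, the 4 WT plates between 6446 and 8719 CPM and the 4 TA plates between 10369.7 and 12495 CPM, so no plate of one genotype overlapped with another. In the light zone WT gave 9019 ± 989.8 CPM, KO 3860.1 ± 519 CPM and TA 6916 ± 4357 CPM. KO plates, from 3274 to 4538 CPM, did not overlap with WT plates, from 7702 to 10006 CPM, while TA plates, with 3 to 7 cells each, spread from 2408 to 11741 CPM across both. Each plate held every genotype, and all plates came from 1 experiment, so plates show technical spread and cells are not replicates: no test was made. KO and TA were both compared with the same WT cells.

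**Figure D3:**
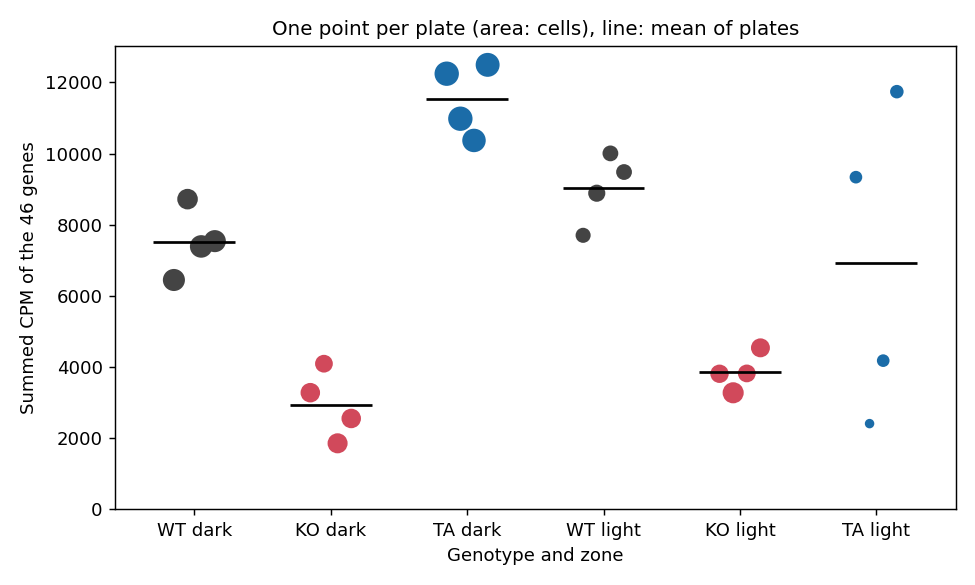
Summed CPM of the 46 genes (y axis) by genotype and zone (x axis) in experiment 5, one point per plate with its area proportional to the number of cells, and a line at the mean of the 4 plates. In the dark zone KO plates reach up to 4092 CPM and TA plates start at 10369.7 CPM, with WT plates between them.

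Ratios of single genes were taken between pooled cells with a pseudocount of 1 CPM, so they understate changes of low genes. A gene was counted where it reached 20 CPM in either group, which in the KO dark zone comparison left out Orc1, Pole2 and Ticrr. In KO dark zone cells, 62 against 82 WT cells, 34 of the 43 counted genes were lower by 2-fold or more and 0 were higher by as much. Of 7054 genes at that level, 15.9% were lower and 11.6% higher by 2-fold or more. The median log2 ratio was -1.52, between -2.22 and -1.12 by plate, against -0.16 over all of those genes, and over all 46 genes without the level filter it was -1.55 with 36 lower by 2-fold or more. By role, 8 of 8 counted licensing genes, 5 of 7 helicase activation genes, 3 of 7 clamp genes, 7 of 8 polymerase genes, 5 of 5 single strand and Okazaki genes, 3 of 4 fork protection genes and 3 of 4 of the last role were lower by 2-fold or more.

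Cdc6, the loader of the MCM ring, had the lowest ratio in KO dark zone cells. Its plates read 0, 5.28, 0 and 0 CPM in KO and 43.1, 8.21, 93.2 and 56.5 CPM in WT, and the pooled log2 ratio was -4.69. Mcm10 read 0, 8.21, 3.91 and 0 CPM in KO against 76.6, 24.9, 56.9 and 39.5 CPM in WT (-3.70). Gins1, a GINS subunit, read 6.28, 4.69, 0 and 0 CPM against 29.3, 76.2, 14.3 and 16.3 CPM (-3.50). Mcm10, Gins1 and Cdc6 did not overlap between KO and WT plates. These genes were picked for low ratios with the same sign in every plate, which favours plates without overlap. Tipin, at a far higher level, read 68.1, 167.6, 43.8 and 30.0 CPM against 241.1, 366, 535 and 443 CPM, again without overlap (-2.57).

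The ratios closest to 0 among genes lower in every plate were those of Slbp, with 457 CPM in WT and 223.1 CPM in KO (-1.03), Timeless, a fork protection factor, with 22.97 and 10.3 CPM (-1.09), and Rfc4, with 187.6 and 85.2 CPM (-1.13). Pold2, a subunit of polymerase delta, was the 1 counted gene above 0, with 41.5 CPM in KO and 21.5 CPM in WT (0.92). Its KO plates read 19.3, 37.5, 13.2 and 89.95 CPM and its WT plates 16.5, 35.5, 13.04 and 18.02 CPM, so 1 KO plate carried most of the difference. The ratio had the same sign in all 4 plates for 27 of the 43 genes, and the share over all genes is not given here.

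TA dark zone cells, compared with the same 82 WT cells, stood on the other side. Here 10 of 46 genes were higher by 2-fold or more and 0 lower, where 8.12% of 6856 genes were higher and 10.2% lower by as much. The median log2 ratio was 0.59, between 0.23 and 0.82 by plate, against -0.03 over all of those genes, and 44 of the 46 genes were above 0. For 19 of the 46 genes the ratio had the same sign in all 4 plates, and the share over all genes is not given here. Ticrr had the highest ratio with the same sign in every plate (2.62), reading 91.3, 42.3, 71.1 and 28.1 CPM in TA and 5.04, 18.5, 5.72 and 0.69 CPM in WT, without overlap. Cdc6 came next (1.78) with 117.4, 238.5, 172.5 and 146.9 CPM against 43.1, 8.21, 93.2 and 56.5 CPM, also without overlap. Rfc4 read 558, 439, 371 and 504 CPM against 136.6, 186.2, 234.7 and 176.4 CPM (1.31), and Rpa2 read 143.7, 156.3, 91.1 and 153.8 CPM against 82.1, 32.5, 61.4 and 56.8 CPM (1.305), both without overlap. The smallest ratios of genes higher in every plate were those of Pold1, the catalytic subunit of polymerase delta, from 131.7 to 167.3 CPM (0.34), Mcm7 from 363 to 474 CPM (0.39), Mcm2 from 283.8 to 375 CPM (0.40) and Mcm3 from 383 to 527 CPM (0.46).

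**Figure D4:**
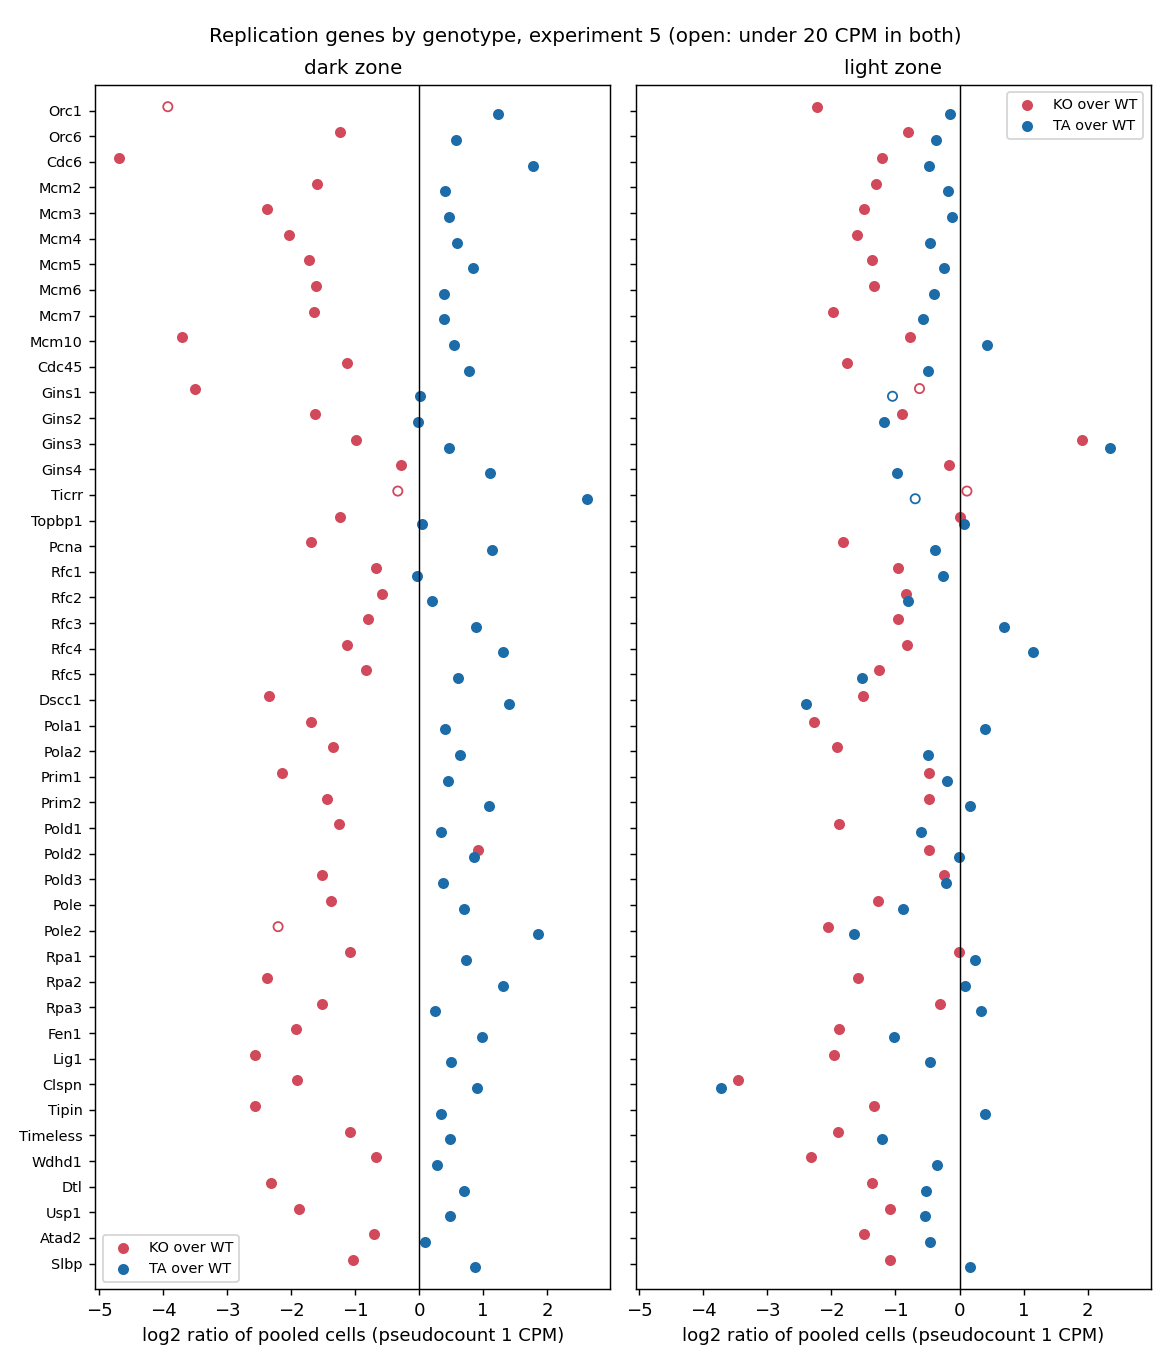
Log2 ratio of pooled KO over WT cells (red) and TA over WT cells (blue) on the x axis for each of the 46 genes (y axis), dark zone left and light zone right, open where a gene was under 20 CPM in both groups. In the dark zone KO points lie left of 0 for all genes but Pold2, and in the light zone TA points lie on both sides.

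In the light zone the 61 KO cells again read lower than the 41 WT cells. Of 44 counted genes (Gins1 and Ticrr were left out) 28 were lower by 2-fold or more and 1 was higher, where 16.6% of 7325 genes were lower and 18.3% higher by as much. The median log2 ratio was -1.32, between -1.57 and -1.05 by plate, against -0.05 over all of those genes. For 22 of the 44 genes the ratio had the same sign in all 4 plates, and the share over all genes is not given here. All 4 fork protection genes and 8 of 9 licensing genes were among the 28, but 1 of 6 counted helicase activation genes. Clspn read 1.60, 1.06, 4.12 and 19.4 CPM in KO plates and 33.8, 82.5, 153.4 and 36.8 CPM in WT plates, without overlap (-3.45). Wdhd1, which ties polymerase alpha to the helicase, was at 163.5 CPM in WT and 31.9 CPM in KO pools (-2.32), Pola1, the catalytic subunit of polymerase alpha, at 336.8 and 68.6 CPM (-2.28) and Mcm7 at 398 and 100.5 CPM (-1.97). The mildest ratios with the same sign in every plate were those of Mcm10 (-0.78), Gins2, a GINS subunit (-0.90), Cdc6 (-1.21) and Rfc5, a small clamp loader subunit (-1.25). Cdc6, lowest of all in the KO dark zone ratio, read 29.5 CPM in KO and 69.8 CPM in WT cells of the light zone.

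For the 22 TA light zone cells 2 of 44 genes were higher and 7 lower by 2-fold or more, where 19.1% and 23.5% of 7119 genes were, and the median log2 ratio was -0.37. By plate the median ran from -5.89, in a plate with 3 TA cells, to 0.32, and without plate 3 the pooled median was 0.04. Of the 44 genes 4 had the same sign in every plate, and the share over all genes is not given here. They were Clspn, with 5.19 CPM in TA and 81.2 CPM in WT, Fen1, with 106.8 and 218.7 CPM, Rfc2, with 198.3 and 349 CPM, and Pold1, with 107.5 and 164.4 CPM. The TA plates of Clspn read 0, 0, 0 and 12.6 CPM.

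Phase calls moved with genotype. In the dark zone 2 of 62 KO cells were called S (3.23%, exact 95% binomial interval 0.393 to 11.2%), against 20 of 82 WT cells (24.4%, 15.6 to 35.1%) and 45.5% of TA cells (35.6 to 55.8%). In the light zone 9 of 61 KO cells (14.8%, 6.98 to 26.2%), 18 of 41 WT cells (43.9%, 28.5 to 60.3%) and 8 of 22 TA cells (36.4%, 17.2 to 59.3%) were called S. These intervals cover counting error only and take cells as independent. Among cells called G1 in the dark zone, 48 KO against 38 WT cells, the median log2 ratio of 32 counted genes was -0.57, against -0.14 over all genes at that level, and among G2M cells, 12 against 24, it was -0.77 over 41 genes, against -0.14. For TA against WT it was 0.04 in G1, 0.13 in S and 0.25 in G2M, against 0.00, -0.08 and -0.03 over all genes. Within G1 cells of the light zone, 45 KO against 15 WT cells, it was -0.82 over 34 genes, against 0.11 over all genes. Since the phase calls may use these genes, how much of the genotype difference is a difference in phase was not tested, and fewer cells in S and less RNA per cell in S cannot be told apart in pooled cells.

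Other gene lists moved with the genotypes as well. In KO dark zone cells 16 of 26 counted other replication genes (median -1.16), 6 of 7 nucleotide supply genes (median -1.48) and 6 of 9 E2F and RB family genes (median -1.31) were lower by 2-fold or more. In TA dark zone cells the medians were 0.44, 0.65 and 0.03. The median share of mitochondrial reads per cell was 10.8% in KO, 6.93% in WT and 5.94% in TA dark zone cells, and 10.4%, 6.52% and 5.43% in light zone cells. T cell markers summed to 375 CPM in KO and 19.3 CPM in WT dark zone cells, and plasma cell markers to 5585 and 2566 CPM. In the light zone these sums were 68.4 and 2.51 CPM for T cell markers and 3448 and 1459 CPM for plasma cell markers. In an alternative chosen after seeing the data, without cells under 50000 reads or with 100 CPM or more of T cell markers, T cell markers summed to 4.80 and 0.27 CPM and the KO dark zone median was -1.73 over 42 genes, with 34 lower by 2-fold or more. The KO light zone median was -1.25 over 44 genes, with 27 lower by 2-fold or more. The part of plasma cell transcripts and mitochondrial reads in these differences was not tested.

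Dec_Positive and Dec_Negative light zone cells at 12 h were sorted side by side in experiment 1 alone, so their values are a description as well. The 46 genes summed to 9227 ± 964 CPM in Dec_Positive and 7222 ± 769 CPM in Dec_Negative cells (SD over 3 plates), with Dec_Positive plates from 8314 to 10235.5 CPM and Dec_Negative plates from 6416 to 7948 CPM, which did not overlap. The median log2 ratio of 44 counted genes was 0.27, between 0.18 and 0.45 by plate, against 0.07 over 6440 genes. Among the 44, 5 genes were higher and 2 lower by 2-fold or more, where 17.7% and 13.3% of those genes were. For 12 of the 44 the ratio had the same sign in all 3 plates, and the share over all genes is not given here.

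All 8 counted licensing genes were above 0 in pooled cells, with a median of 0.43 and none at 2-fold. Fork protection genes had a median of 0.48, with 3 of 4 above 0. Mcm3 read 588, 881 and 789 CPM in Dec_Positive plates and 405, 579 and 525 CPM in Dec_Negative plates, without overlap (0.53), and Mcm7 was at 569 and 414 CPM (0.46). Helicase activation genes had a median of -0.22, with 3 of 8 above 0. Gins1 was lower in Dec_Positive cells in every plate, with 10.4, 9.35 and 11.7 CPM against 51.1, 16.5 and 16.2 CPM (-1.37). The highest pooled ratios with the same sign in every plate were those of Prim2, the large primase subunit (45.1 and 14.8 CPM, 1.55), Rfc4 (170.4 and 63.9 CPM, 1.40), Pola2, the regulatory subunit of polymerase alpha (114.98 and 44.8 CPM, 1.34), and Lig1 (138.7 and 58.9 CPM, 1.22). By plate they ran from 0.56 to 2.84 for Prim2, 0.45 to 2.57 for Rfc4, 0.04 to 3.83 for Pola2 and 0.38 to 3.03 for Lig1. For each of these genes the same Dec_Negative plate was the lowest, with 6.68, 32.2, 8.27 and 15.6 CPM. Timeless had the smallest pooled ratio with the same sign in every plate, at 84.04 and 68.5 CPM (0.29). Of Dec_Positive cells 43.98% (exact 95% interval 36.3 to 51.9%) were called S and of Dec_Negative cells 31.3% (25 of 80, 21.3 to 42.6%). Among cells called G1 the median ratio was 0.58 over 34 genes, against 0.19 over all genes, and among cells called S it was -0.21 over 45 genes, against 0.15, and the difference between these was not tested.

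No member passed the test between the zones. Experiments 3 and 4 gave 7 pairs of dark and light zone sums, each matched in experiment and time, and edgeR's quasi-likelihood test with the pair as a block called 0 of the 46, where 0.309% of 10669 genes were called. Without adjustment 3 of the 46 had a p under 0.05, as did 9.22% of all genes tested. DESeq2 on the same sums called 0 of the 46 and 4.67% of all genes. Limma, on the mean CPM of cells with equal weight for each cell, called 0 of the 46 and 0.525% of all genes. The median log2 ratio of dark over light was 0.09, with 30 of 46 genes above 0, against 0.24 and 66.2% over all genes tested. By experiment it was -0.04 without experiment 4 and 0.17 without experiment 3. For no gene did all 7 pairs share a sign. Without the 97 cells marked for both zones edgeR again called 0 of the 46, with a member median of 0.07. Of 10619 genes tested it then called 37 higher and 33 lower. The time and FUCCI comparisons were not run without these cells.

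The 3 genes at the unadjusted threshold, named after their values were seen, were Mcm4 (0.45 ± 0.16, edgeR adjusted p = 0.407), Rfc1 (0.49 ± 0.21, adjusted p = 0.492) and Rpa1 (0.36 ± 0.16, adjusted p = 0.532). Mcm4 ranged from 218.3 to 604 CPM in dark zone sums (median 373) and from 152.3 to 399 CPM in light zone sums (median 337.2), and was higher in the dark zone in 6 of 7 pairs. By role the medians ran from -0.19 for polymerases and primase, with 2 of 9 genes above 0, to 0.33 for single strand binding and Okazaki maturation, with 5 of 5 above 0. In WT cells of experiment 5 the median of dark over light was -0.32 over 45 genes, in KO cells -0.70 over 40 genes and in TA cells 0.63 over 46 genes, each from pooled cells of 1 experiment and with no test of the difference.

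None of the 46 genes was called against 12 h in the dark zone. There the edgeR test called 0 of 11661 genes at 30, 46 and 60 h (0%), and so 0 of the 46, with 2, 1 and 3 of the 46 under 0.05 before adjustment, where 2.19%, 4.3% and 1.66% of all genes were. DESeq2 called 0.78%, 1.17% and 0.84% of all genes but 0 of the 46, and limma called 0 genes at all 3 times. The medians of the 46 genes were 0.33, 0.26 and 0.26, with 40, 35 and 38 genes above 0, against 0.01, -0.01 and 0.03 over all genes tested. The 3 comparisons share their 12 h cells. By experiment the summed level went from 7439.5 CPM at 12 h to 8141, 8738 and 9874 CPM at 30, 46 and 60 h in experiment 3, and from 9853 to 11327, 9395 and 10579.7 CPM in experiment 4, so experiment 4 was lower at 46 h than at 12 h.

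Pcna was the 1 gene at an unadjusted p under 0.05 at all 3 times. Its dark zone sums in experiment 3 read 260.2, 395, 455 and 509 CPM at 12, 30, 46 and 60 h, those in experiment 4 read 272.96, 474, 565 and 442 CPM, and the 30 h sum of experiment 1 read 479 CPM. Every later sum was above both 12 h sums, with log2 ratios of 0.86 ± 0.31, 1.03 ± 0.32 and 0.83 ± 0.31, and the edgeR adjusted p was 1 each time. Of genes with the same sign in both experiments Ticrr had the largest ratios at 30 and 60 h (2.10 ± 0.86 and 1.82 ± 0.87, edgeR adjusted p = 1). It read 10.8, 23.4 and 23.3 CPM at 12, 30 and 60 h in experiment 3 and 9.69, 64.6 and 47.7 CPM in experiment 4. Others with a large ratio and the same sign in both experiments were Topbp1, which helps to start the helicase (1.01 ± 0.65), and Usp1 (0.77 ± 0.62) at 30 h, Pole2, a polymerase epsilon subunit (1.34 ± 0.68), and Rfc4 (0.84 ± 0.46) at 46 h, and Pola1 (0.98 ± 0.49) and Fen1 (0.87 ± 0.37) at 60 h, none of them called.

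**Figure D5:**
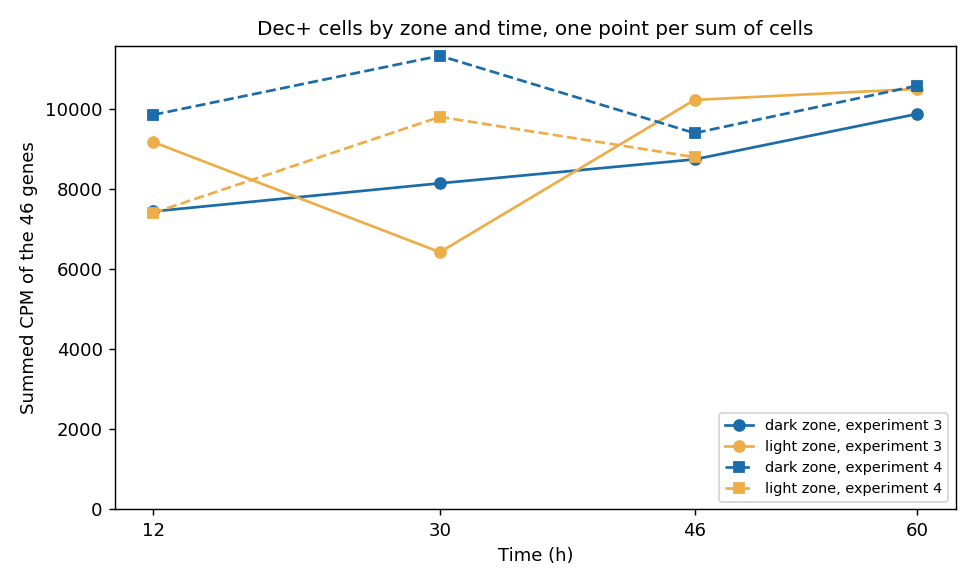
Summed CPM of the 46 genes (y axis) against time in hours (x axis) in Dec+ cells, dark zone in blue and light zone in yellow, with experiment 3 as circles and experiment 4 as squares, one point per sum of 10 cells or more. The light zone of experiment 3 dips to 6421 CPM at 30 h while that of experiment 4 stands at 9799.98 CPM.

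In the light zone edgeR called 0 of 11661 genes at 30 h (0%), 0.472% at 46 h and 0.12% at 60 h, and 0 of the 46 at any of these times. At an unadjusted p under 0.05 stood 3, 8 and 2 of the 46, where 3.45%, 11.5% and 7.03% of all genes did. Limma called 0 of the 46, and 0%, 1.44% and 0.283% of all genes. DESeq2 called 2 at 46 h, Gins2 (adjusted p = 0.0290) and Rfc5 (adjusted p = 0.0261), where it called 9.04% of all genes. At 30 and 60 h it called 0 of the 46, and 1.01% and 5.18% of all genes. The medians were 0.01, 0.45 and 0.43, with 24, 34 and 39 genes above 0, against -0.10, -0.30 and -0.27 over all genes tested. At 30 h the experiments went apart, with a median of -0.28 without experiment 4 and 0.40 without experiment 3. The 60 h value rests on 1 sum of 21 cells in experiment 3, whose spread is assumed to be that of the other sums.

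Gins2 read 84.5, 58.6 and 51.98 CPM in light zone sums at 12 h (experiments 3, 4 and 1) and 181.04 and 154.7 CPM at 46 h, above all 3 of them (1.28 ± 0.44, edgeR adjusted p = 0.237). Pold1 read 181.9, 128.2 and 201.1 CPM at 12 h (experiments 3, 4 and 1). Later sums read 306.9, 343 and 368 CPM at 30, 46 and 60 h in experiment 3, and 263.5 and 170 CPM at 30 and 46 h in experiment 4, with log2 ratios of 1.00 ± 0.29 at 30 h and 1.10 ± 0.36 at 60 h (edgeR adjusted p = 1 and 0.427). At 30 h its sums were above all those at 12 h, and at 46 h they were not. Lower at 30 h in both experiments were Orc1 (-1.25 ± 1.41), Timeless (-1.20 ± 0.60), Dtl (-1.10 ± 0.62) and Pold3, an accessory subunit of polymerase delta (-0.99 ± 0.43), each with an edgeR adjusted p of 1. Pole in experiment 3 read 35.99 CPM at 12 h and 138.3 CPM at 60 h (2.06 ± 0.67, edgeR adjusted p = 0.420), and in experiments 3 and 4 it read 14.5 and 21.04 CPM at 46 h. Of 28 other replication genes tested at 46 h, 2 fell by edgeR, Orc3 (-2.48 ± 0.47, adjusted p = 0.0338) and Orc4 (-3.10 ± 0.64, adjusted p = 0.0496), both subunits of the origin recognition complex. Neither belongs to the 46 genes. The 46 h sums held 11 and 17 cells. Without experiment 1 edgeR called 0 of 11116 genes at 46 h, so neither Orc3 nor Orc4 passed.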

How the data were processed

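The combined gene tables hold expected counts per gene and cell, estimated by the authors and not normalized; STAR 2.6, RSEM 1.3.1, Seurat 3.1.4 and mm10 are named in the submitters' processing notes, without roles. The deposited cell tables give FUCCI as a sorter intensity in arbitrary units, mitochondrial reads as a percent computed by the authors, and a phase. Of the columns, 255 matched no sample and were left out, with experiment 2 and the PB wells. Expected counts of cells were summed by experiment, time and zone (at least 10 cells), rounded and tested with edgeR 4.0.16 (quasi-likelihood, TMM factors, filterByExpr) in R 4.3.3, adjusted over all genes tested, with a threshold of 0.05. SEs were taken from the ratio and its F statistic. Zone and FUCCI fits carried the pair as a block, since both sums of a pair share experiment and time and, per the labels' protocols, plates held all conditions of a replicate; deviations within the 7 zone pairs correlated between 0.00 and 0.21. Time fits carried the experiment. DESeq2 1.42.0 on the same sums was an alternative. Limma 3.58.1 was another, on log2 of the mean CPM of cells, each cell with equal weight, so its measure differs too. Untested comparisons are ratios of pooled CPM with a pseudocount of 1 CPM, in Python, over genes at 20 CPM or more. Reads have no molecular identifiers and no animal is named, so p-values measure the spread between these sums. The edgeR tests were also run on simulated counts with known changes. These were drawn without pair or experiment effects, and the share of changes recovered is not given here.

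The members and lists were chosen with earlier results of these data known. Named in a tested comparison is each member past the threshold, then, up to 6, those with the largest ratio and the same sign in every pair or experiment. In an untested one these are the 4 highest and 4 lowest ratios with the same sign in every plate or sum. Such a choice favours genes whose plates do not overlap, and the share of all genes without overlap is not given here.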

Additional observations from a re-analysis of the deposited data

Results flagged for a closer look

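Of 64 groups of plates or sums looked at, 5 had a value that stood apart from the rest by Dixon's criterion. Normally distributed values do so by chance in about 1 group in 20. That rate need not hold for groups with values at 0 CPM or for genes picked by their ratios, as here. In KO dark zone cells Cdc6 read 5.28 CPM in 1 plate and 0 CPM in the other 3. In KO light zone cells 1 plate stood high for Rfc5, with 158.3 CPM against 55.5 CPM in the next plate, for Clspn, with 19.4 against 4.12 CPM, and for Pola1, with 119.1 against 56.9 CPM. In TA light zone cells Clspn read 12.6 CPM in 1 plate and 0 CPM in the other 3.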

How the results depend on the processing

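Of the values computed for the main comparisons under other settings, 6 moved beyond the replicate spread or beyond 1.5 times the count. Medians that changed sign were those of the zones, 0.09 and -0.04 without experiment 4, of TA in the light zone, -0.37 and 0.04 without plate 3, and of 30 h in the light zone, 0.01, -0.28 without experiment 4 and -0.02 without the block. DESeq2 called 14 members for FUCCI and 2 at 46 h in the light zone. Leaving out an experiment gave 0 to 3 calls for FUCCI and 0 in every zone and time comparison. Without the replicate block, treating paired sums as unpaired, 4 members were called for FUCCI and 0 for the zones. The zone median over all genes tested was 0.24, 0.14 by DESeq2 and 0.02 without the block. A pseudocount of 5 CPM moved the G2M over S median to -0.68. Leaving out a plate gave medians of 0.21 to 0.44 for Dec_Positive over Dec_Negative, -1.78 to -1.31 and -1.28 to -1.23 for KO in the dark and light zone, 0.52 to 0.75 and -0.81 to 0.04 for TA. Leaving out an experiment gave 1.79 to 2.02 for S over G1 and -0.78 to -0.75 for G2M over S. Without experiment 3 no gene of 10404 passed for FUCCI, while the 5 members called kept ratios of 0.44 to 0.89. Rfc2 was also lost without the block and without experiment 4, and Cdc45 without experiment 4. Light zone sums at 46 h held under 20 cells and the 60 h value rests on experiment 3, so neither was run without them. The median of 155485 reads per cell in experiment 5 limits low genes such as Orc1 and Ticrr.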
